A study of Mus musculus with 3 samples.

Results

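The transcripts present in wild-type mouse CD4+ T cells 2 days after stimulation were described from 1 array, out of the 3 arrays of the series. The mice, female C57BL/6 animals of 8 weeks, carried no deletion per the labels, and RNA of 1 sample was measured on an Agilent 1-colour oligonucleotide array. The other 2 arrays, of Dll1-/- and Rbpj-/- cells, are compared with it nowhere here, and only their detection flags are used, in a check of how detection depends on its rule. The labels do not give the stimulus, the culture conditions, the purity of the cells or whether mice were pooled. Genes were ranked by their level, which is the log2 of the processed signal from which the 75th percentile of all non-control probes on the array was subtracted. A gene was counted as detected where at least 1 of its probes was well above background by the scanner software's own flag, and its level is the mean over those probes. Of 20887 genes that could be named, 12100 (57.9%) were detected and 8787 were not. Every count of detected list members below is to be read beside that share.

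CD4+ helper T cells recognise peptides on MHC class II molecules through the T cell receptor and its CD3 chains. On stimulation a resting helper cell enlarges, raises its output of ribosomes and proteins, displays the high-affinity interleukin 2 receptor, enters the cell cycle and begins to secrete cytokines. The choice among helper fates is set by transcription factors such as T-bet (Tbx21), GATA3, Bcl6 and Foxp3, each linked to its own set of cytokines.

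With 1 array there is no replicate spread and no test, so everything below is a description of this sample. Of 432 probes printed repeatedly, 239 were well above background. Spots of one such probe differed little, with a median SD of 0.06 log2 over these 239 and a 95th percentile of 0.21. Different probes of one gene differed far more. Among 2912 genes with at least 2 detected probes the median SD between probes was 1.41 log2, and that value is the error taken for any order of genes. Genes whose levels lie closer than that have no order here. In total RNA of a cell sample, fewer cells of a type and less RNA per cell cannot be told apart, and a level relative to the array's 75th percentile does not show the RNA content per cell.

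Of 55681 non-control probes, 25943 (46.6%) were well above background, and 0 spots were saturated. The 75th percentile lay at a log2 signal of 7.47 (signal 178), the lowest signal well above background was 19.2 and the highest was 416000. The negative control sequence was above background in 0 of 285 spots, which allows a share of up to 1.05% (3 counts of 285) by counting alone. Of 96 spike-in control probes 4 were mostly above background, and over the other probes 5 of 2496 spots (0.2%) were, with an exact 95% interval of 0.0651 to 0.467%. Detection was slightly more frequent among probes in the lower-numbered rows of the array (47.5%) than in the equally many higher-numbered rows (45.5%).

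Detected genes were placed in 3 classes by rank. The strong class is the highest 10% (1210 genes, level at least 4.48, signal 3950), the weak class the lowest 25% (3025 genes, level at most -0.91, signal 94.4), and the intermediate class the other 7865. Levels ran from -3.19 to 10.95 with a median of 0.91. The strong class held 79.7% of the signal summed over detected genes. Genes at its lower edge were almost equal in level, with Casp2 and Cmtm6 at 4.474 and Arhgap4 at 4.476 just outside, and Exoc1 at 4.478 just inside.

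**Figure D1:**
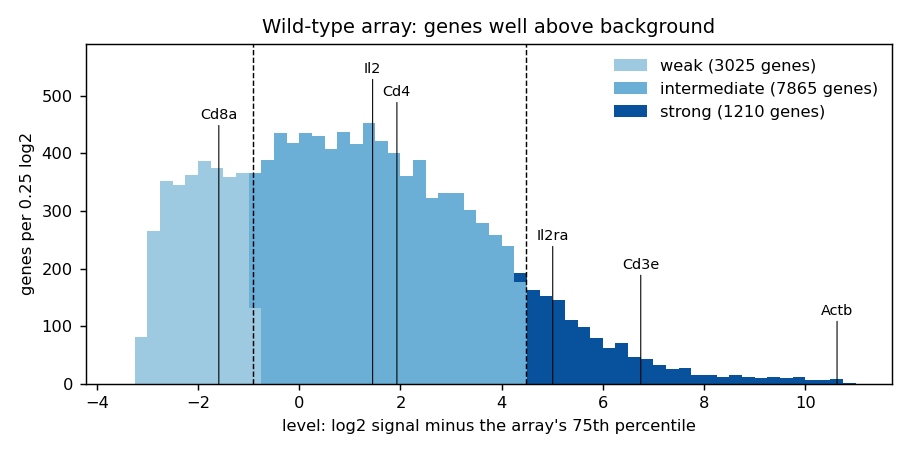
Number of detected genes (y axis, genes per 0.25 log2) by level (x axis, log2 signal minus the array's 75th percentile) on the wild-type array. Colours give the weak (3025), intermediate (7865) and strong (1210) classes, dashed lines mark -0.91 and 4.48, and 6 genes are marked at their levels, from Cd8a at -1.59 to Actb at 10.63. Most genes lie between the dashed lines, and a long tail of strong genes reaches above 10.

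The strongest signals belonged to the machinery of protein synthesis. All 74 measured genes of the cytosolic ribosome were detected, against 57.9% of all named genes, and 72 of the 74 were strong, against 10% of all detected genes. Their median level was 8.69, and these genes, 0.612% of the detected genes, held 20.8% of the summed signal. Of the 30 highest genes 15 encoded ribosomal proteins, and of the 100 highest 45 did. Fau, which encodes a ubiquitin-like protein fused to a small-subunit ribosomal protein, stood at 10.71. Rpl37a of the large subunit stood at 10.68, and Rps14 of the small subunit at 10.67. Their order lies within the error between probes. Rps27 stood at 10.06 over 4 probes that lay between 9.75 and 10.38, and Rpl38 at 9.97 over 2 probes with an SD of 0.04, so for these genes the separate probes gave nearly one value.

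The 2 ribosomal protein genes outside the strong class did not have uniformly low probes. Rpl21 stood at 1.96 over probes at 7.74, -0.13 and -1.73. Rps25 stood at 3.94 over probes at 8.47 and -0.60. In both genes 1 probe was at the level usual for the ribosome and the others were far below it. Ribosomal proteins have many processed pseudogenes and near-identical copies, so their probes may share signal between loci.

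Ribosomal protein transcripts are known for starts at a cytosine inside a run of pyrimidines, the 5′ terminal oligopyrimidine tract, through which growth signals control their translation. The RefSeq promoter table (GRCm38.p6) matched 54 of the 74 genes. A start base C followed by 4 bases that are each C or T was found in 12 of these 54 (22.2%), read on the gene's strand at the annotated start, against 2.49% of the 27025 genes in the table and 3.87% of the strong genes. The lines below give 15 bases before and 15 from the annotated start for the 5 strongest genes with such a run, with the run in capitals, and for the 2 strongest without one, in lower case throughout. They are shown so that the run, and its absence at equally strong genes, can be read directly.
Fau (chr19:6057932-6057961, plus strand): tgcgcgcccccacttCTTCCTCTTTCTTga
Rps10 (chr17:27635230-27635259, minus strand): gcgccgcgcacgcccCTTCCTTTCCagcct
Rpl35 (chr2:39005117-39005146, minus strand): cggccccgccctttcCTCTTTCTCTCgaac
Rplp2 (chr7:141447636-141447665, plus strand): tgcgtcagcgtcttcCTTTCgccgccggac
Rps27 (chr3:90213634-90213663, minus strand): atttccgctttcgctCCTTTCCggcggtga
Rpl37a (chr1:72711245-72711274, plus strand): ttccgctcgccggtctaaaaccgcgcatgc
Rpl41 (chr10:128549154-128549183, minus strand): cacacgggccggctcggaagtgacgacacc
Rpl37a at 10.68 and Rpl41 at 10.15 were as strong as the genes with a run. An annotated start that is off by a few bases hides a run from this search, so an absent match says only that these letters are not at this position.

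The factors that drive the ribosome were strong too. Of 37 measured translation factors 36 were detected and 21 were strong, with a median of 4.92. Eef1a1, the elongation factor that delivers aminoacyl-tRNA, stood at 8.14 over 2 probes with an SD of 0.3, and Eef2, which moves the ribosome along, at 7.16. The helicase Eif4a1 stood at 7.06, whereas the cap-binding factor Eif4e stood at 1.99 over 2 probes. Tpt1, a translationally controlled tumour protein that is itself encoded by a pyrimidine-tract mRNA, stood at 10.02 over 3 probes between 9.38 and 10.36. The 1 factor not detected was Eif5b.

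Ribosome assembly genes were all detected, 30 of 30, and 11 were strong, with a median of 3.49. Nhp2, a protein of the particles that modify ribosomal RNA, stood at 6.75, and Npm1, the nucleolar chaperone nucleophosmin, at 6.40 over 5 probes that ranged from 3.96 to 7.94. Fbl, the ribosomal RNA methyltransferase fibrillarin, stood at 5.62. Aminoacyl-tRNA synthetases were detected in 20 of 20 cases with 5 strong, from Gars at 6.30 to Yars at -2.41. Mitochondrial ribosomal proteins were a step below the cytosolic ones, with 77 of 78 detected, 24 strong and a median of 3.26.

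Other housekeeping complexes were nearly complete. Respiratory chain and ATP synthase genes were detected in 49 of 53 cases and strong in 36, with a median of 5.53. Cox6a1, the widely expressed form of a cytochrome c oxidase subunit, stood at 8.38, and Cox8a at 7.54. The 4 genes not detected, Cox6a2, Cox8b, Cox7b2 and Cox8c, are forms of these subunits known from muscle or testis. Cox7a1, Cox6b2 and Cox4i2, which are also tissue-restricted forms, lay at -0.91, -0.81 and -0.95, at the edge of the weak class. Proteasome subunits were detected in 38 of 39 cases and strong in 21, with a median of 5.12, and the missing one was Psmb11, the subunit of the thymus epithelium.

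Of 33 measured glycolytic genes 25 were detected (75.8%, against 57.9% of all named genes). Of these 25 genes 8 were strong (32.0%, against 10% of all detected genes). Aldoa, the aldolase of most tissues, stood at 7.56, Eno1 at 6.54 and Pkm at 5.28. Gapdh stood at 5.44 over 7 probes that ranged from 2.45 to 8.26, and Ldha, which makes lactate, at 4.48 over 3 probes from 1.99 to 8.00. Among forms known from liver, muscle or testis, Pklr, Pgam2, Slc2a4, Pgk2 and Ldhc were not detected. Others of this kind were, with the muscle enolase Eno3 at 3.39, the liver transporter Slc2a2 at -1.95 and the sperm enzyme Gapdhs at -2.69. Hk3 was not detected. The glucose transporters Slc2a1 and Slc2a3 stood at 2.10 and 0.52, and hexokinase Hk2 at 0.38. The phosphofructokinases Pfkm, Pfkl and Pfkp, at 1.62, 0.58 and 0.18, were also far below Aldoa. The lactate carrier Slc16a1 was weak at -2.82, while Slc16a3 stood at 1.91 over 2 probes with an SD of 0.1.

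Synthetic metabolism outside the ribosome reached no such levels. Of 24 sterol and fatty acid genes 23 were detected and 0 were strong, with a median of 1.15. Idi1, an isomerase of the mevalonate pathway, stood at 3.61, and the transcription factor Srebf2, which drives the pathway, at -1.63 over 2 probes. Genes of serine and one-carbon metabolism and of the amino acid stress response were detected in 17 of 19 cases with 1 strong, the arginine transporter Slc7a1 at 4.49. Phgdh, the first enzyme of serine synthesis, stood at 4.06 over 2 probes with an SD of 0.3.

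The cytoskeleton also had very strong members. Of 43 genes 40 were detected and 22 were strong, and together they held 2.41% of the summed signal. Actb stood at 10.63, the actin-binding peptide Tmsb4x at 9.50, and Coro1a, an actin regulator of leukocytes, at 7.86. The muscle actins Acta1, Acta2 and Actc1 were not detected, and the neuronal tubulin Tubb3 was weak at -2.92. Chaperones were detected in 30 of 33 cases and strong in 12, with Ppia (cyclophilin A) at 9.92 and Hsp90ab1 at 8.01. The stress-inducible Hspa1a was not detected.

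**Figure D2:**
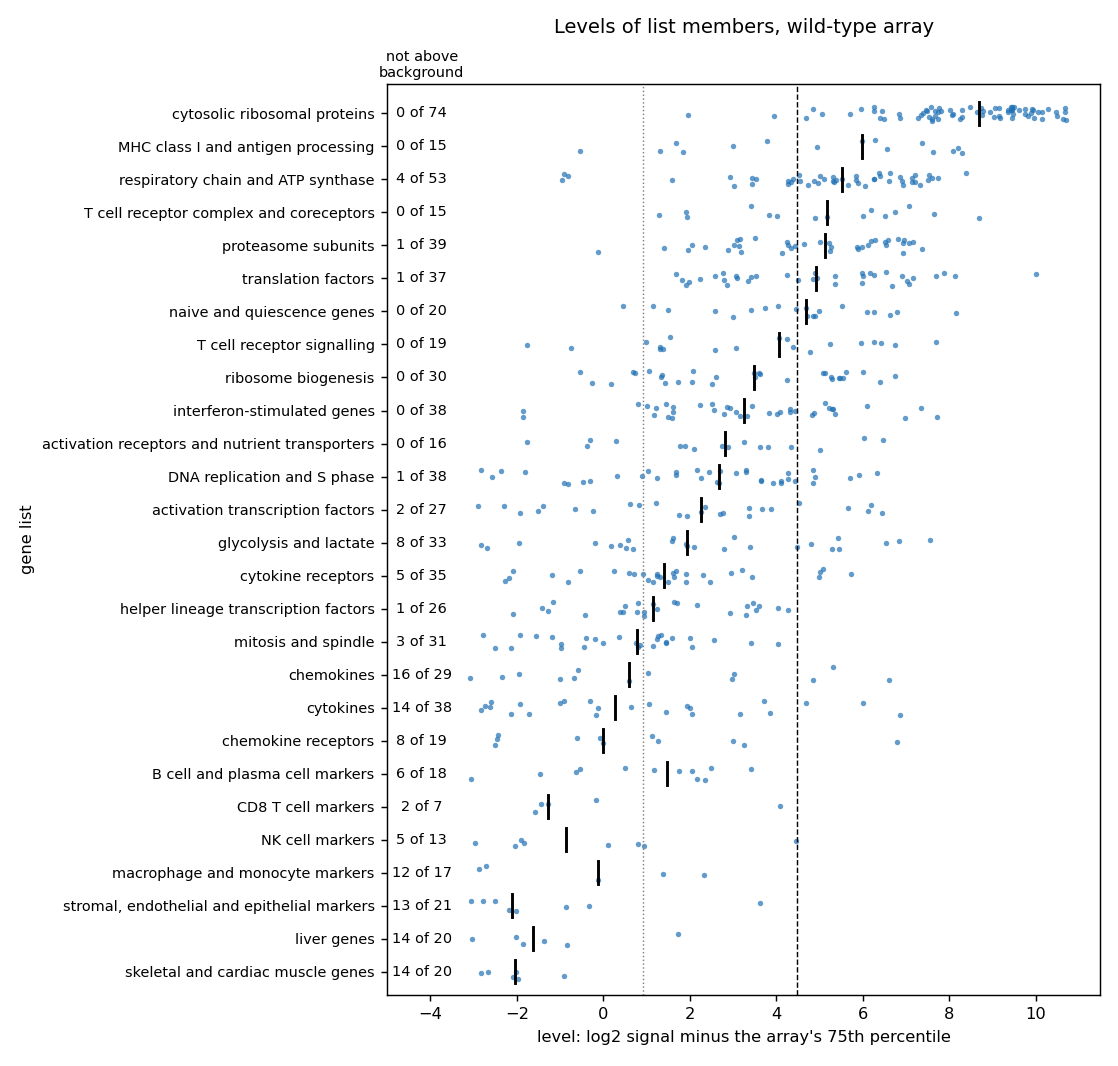
Level of each detected member (dots, x axis, log2 signal minus the array's 75th percentile) of 27 gene lists (y axis) on the wild-type array, with the median of each list as a black bar and the number of measured members not above background at the left. The dotted line is the median of all detected genes, 0.91, and the dashed line the edge of the strong class, 4.48. Cytosolic ribosomal proteins sit highest with a median of 8.69, and lists of other tissues have mostly undetected members.

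The label of the cells was read from its markers. Cd3e, the epsilon chain of the CD3 complex, stood at 6.75, and Il2ra, the alpha chain of the interleukin 2 receptor and a mark of activation, at 5.01, both in the strong class. Cd4 stood at 1.93 in the intermediate class, over 2 probes at 4.30 and -0.44 that lay on both sides of the median of all genes. Cd8a was weak at -1.59 over probes at -0.35 and -2.83, and Cd8b1 stood at -0.16. The probe ranges of Cd4 and Cd8a overlap only at their edges, with the lower Cd4 probe just under the higher Cd8a probe, so the mean levels rather than each probe pair set Cd4 above Cd8a. The female label was matched by Xist, the RNA of the inactive X chromosome, at 1.47 over 2 probes at 1.97 and 0.97, while 7 of 7 listed Y-linked genes, among them Ddx3y, Uty and Kdm5d, were not detected.

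All 15 genes of the T cell receptor complex and coreceptors were detected and 9 were strong, with a median of 5.17. Cd3d stood at 7.66 and Cd3g at 6.18. Cd5, a modulator of receptor signals, stood at 7.07, Thy1 at 6.00, and the costimulatory receptor Cd28 at 4.90. The lowest was Cd247, the zeta chain, at 1.28 with a single probe. Cd52, a small glycoprotein of lymphocyte surfaces, was the highest at 8.69. These values place most of the receptor complex far above the median gene.

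The signalling proteins below the receptor were likewise all detected, 19 of 19, with 7 strong and a median of 4.06. Lck, the kinase that starts the signal, stood at 7.69, and Zap70, which Lck activates, at 6.25 over probes at 7.14 and 5.36. The adaptor Lat stood at 5.96. Plcg1, the phospholipase that makes the second messengers, was weak at -1.76 over 2 probes, and Themis stood at -0.75. Within the higher-numbered array rows alone the list's median was 1.26 over 11 genes, so the median of this list depends on which probes are read.

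Receptors of the activated state were all detected, 16 of 16, but 3 were strong and the median was 2.82. Tnfrsf4 (OX40) and Tnfrsf18 (GITR), costimulatory receptors of the TNF receptor family, stood at 6.48 and 6.04. Icos stood at 3.81, Tnfrsf9 (4-1BB) at 3.25 over 2 probes with an SD of 0.5, and the early activation receptor Cd69 at 2.88. Cd40lg, the signal by which helper cells license B cells, was weak at -1.76. Among carriers of nutrients, Slc3a2 stood at 4.35 and its partner in the leucine transporter, Slc7a5, at -0.37 over 2 probes. The transferrin receptor Tfrc stood at 0.29 over 3 probes.

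Inhibitory receptors, in a list that also holds the ligand Cd274 (PD-L1), were detected without exception, 11 of 11, at a lower median of 0.71. The 1 strong member, at 4.74, was this ligand, so no receptor of the list was strong. Its receptor Pdcd1 (PD-1) stood at 3.49. Ctla4 stood at 0.71. Lag3 stood at -0.25, and Tigit and Havcr2 (TIM-3) were weak at -2.24 and -2.34. Within the higher-numbered rows the median of the 7 detected members was 3.07.

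Transcription factors of activation spanned nearly the whole scale. Of 27 genes 25 were detected and 5 were strong. Jund and Jun, members of AP-1, stood at 6.45 and 5.65, and Nr4a1, an orphan nuclear receptor induced by receptor signals, at 6.18. Rela, an NF-kB subunit, stood at 6.13, and Egr2 at 4.52. Below them were Irf4 at 3.66, Batf at 3.37, Nfatc1 at 2.76 over 2 probes and Myc at 1.94. Fos, Fosl1, Junb and Rel were weak at -1.51, -1.92, -2.31 and -2.91, and Fosb and Egr3 were not detected. Members of one family therefore lay in all classes, AP-1 from Jund in the strong class to Fosb not detected.

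Of 38 cytokine genes 24 were detected (63.2%), near the 57.9% of all named genes, and 3 were strong. Ltb, the membrane anchor of lymphotoxin, stood at 6.87, Lif at 6.00 and Tnfsf8 (CD30 ligand) at 4.68. Ifng, the Th1 cytokine, stood at 3.85, and Il4, the Th2 cytokine, at 2.04. Tnf stood at 2.00 and Il2, the T cell growth factor, at 1.45. These 4 were intermediate, and the difference between Ifng and Il4 of single probes has no replicate. Il10 and Il3 lay at the edge of the weak class at -0.91 and -1.0. Il17a at -2.61, Il13 at -2.63 and Il21 at -1.94 were weak. Il5, Il17f and Il22, cytokines of Th2, Th17 and Th22 cells, were not detected, nor were Il6, Il1b, Il18, Il15 or Il33, which are mainly products of myeloid and tissue cells. Levels of Ifna1 (-0.12) may be shared with its near-identical relatives.

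Chemokines were detected in 13 of 29 cases (44.8%, against 57.9% of all named genes). Ccl1, a ligand of Ccr8, stood at 6.60, Xcl1 (lymphotactin) at 5.32 and Ccl4 at 4.84, all strong. Ccl3 and Ccl5 stood at 3.02 and 2.97. Cxcl1 and Cxcl10 stood at 1.04 and 0.59, Ccl6 and Cxcl9 were weak at -1.95 and -3.09, and the 16 not detected included Ccl2, Ccl7, Cxcl2, Cxcl12 and Cxcl13. Cytokines and chemokines carried little of the summed signal, 0.142% and 0.0997%.

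**Figure D3:**
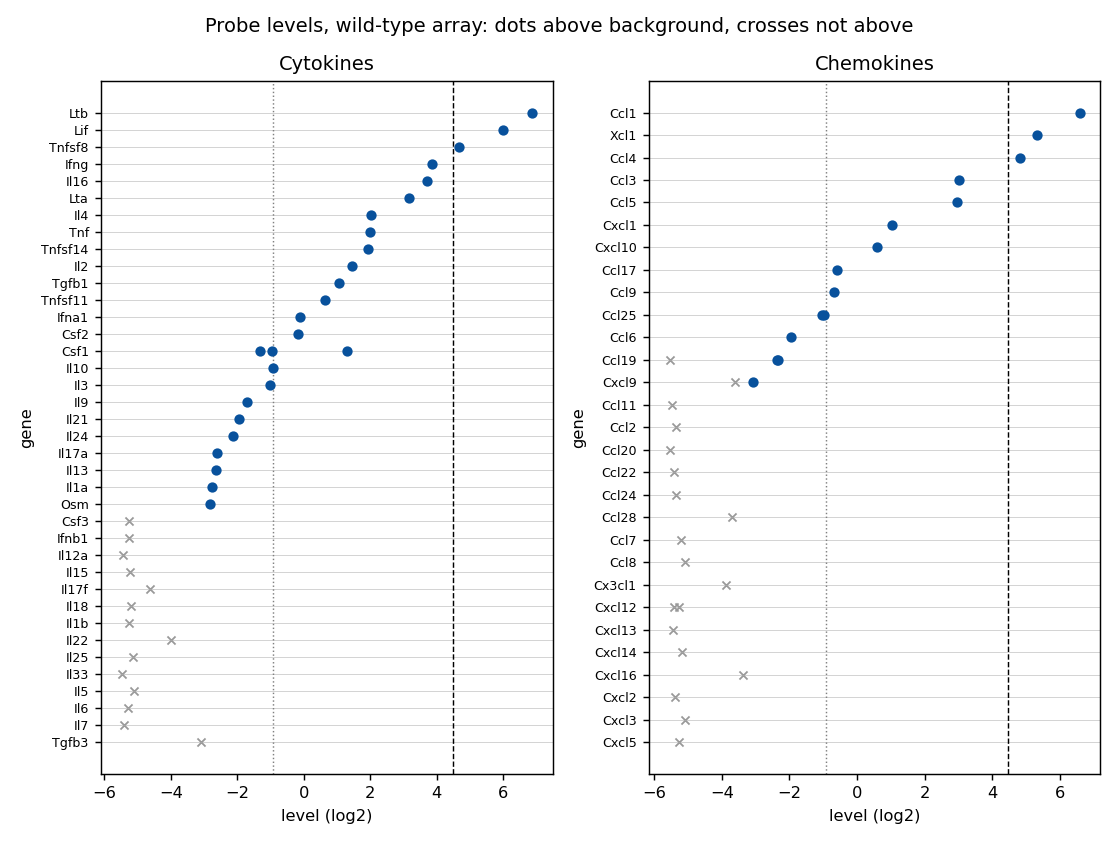
Level of every probe (x axis, log2) of 38 cytokine genes (left) and 29 chemokine genes (right), each on a line of its own (y axis), on the wild-type array. Filled dots are probes well above background and crosses probes that are not, the dashed line is the edge of the strong class at 4.48 and the dotted line the edge of the weak class at -0.91. Ltb at 6.87 and Ccl1 at 6.60 lead, and 14 cytokines and 16 chemokines have crosses only.

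The promoters of these genes differed in composition from all promoters in the table. The table held a promoter, 250 bases before to 50 after the annotated start, for 30 of the 38 cytokine genes. CpG observed over expected was counted over the 250 bases before the start only. It was at least 0.6, the value taken here for CpG-rich, in 0 of these 30, against 34.5% of all promoters in the table. The letters TATAA lay within the 50 bases before the start, on the gene's strand, in 33.3% of the cytokine promoters and in 28.6% of 21 chemokine promoters, against 5.33% of all promoters. Neither trait was particular to these lists. CpG-rich shares of the other lists ran from 0%, as for NK cell markers and liver genes, to 96.4% for translation factors. Their TATAA shares ran from 0%, as for the T cell receptor complex and coreceptors, to 37.5% for naive and quiescence genes. Presence of these letters did not follow detection in one direction. They were in 38.1% of 21 promoters of detected cytokines and 22.2% of 9 of undetected ones, but in 9.09% of 11 detected and 50% of 10 undetected chemokines.

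The 60 bases before the annotated start are given for the 4 strongest detected cytokine or chemokine genes with TATAA there, and for 2 undetected cytokines that have it, with the letters TATAA in capitals (RefSeq, GRCm38.p6). They show that the same letters stand before genes at quite different levels.
Ifng (chr10:118440986-118441045, plus strand, level 3.85): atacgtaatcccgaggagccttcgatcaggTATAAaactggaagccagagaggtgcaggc
Ccl3 (chr11:83649379-83649438, minus strand, level 3.02): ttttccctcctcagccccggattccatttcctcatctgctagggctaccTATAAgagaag
Tnf (chr17:35202008-35202067, minus strand, level 2.00): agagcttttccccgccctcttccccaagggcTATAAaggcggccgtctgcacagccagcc
Il2 (chr3:37125955-37126014, minus strand, level 1.45): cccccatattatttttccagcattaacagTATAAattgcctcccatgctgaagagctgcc
Il17f (chr1:20784271-20784330, minus strand, not detected): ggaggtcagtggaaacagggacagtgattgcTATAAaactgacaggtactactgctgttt
Il1b (chr2:129371140-129371199, minus strand, not detected): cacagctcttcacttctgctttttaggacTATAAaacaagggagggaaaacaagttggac
In Ccl3 the letters lie nearer to the annotated start than in the other 5. A match is a description of the letters and not of a site in use.

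Cytokine receptors were detected in 30 of 35 cases, with 4 strong, beside 24 of 38 for the cytokines. Il6ra stood at 5.74, Ifngr1 at 5.09, Il2ra at 5.01 and Il7r at 4.98. The shared gamma chain Il2rg stood at 3.44 and Il2rb at 2.96, so all chains of the interleukin 2 receptor were present. Receptor partners were not always found together. Il12rb1 stood at 1.25 and Il18r1 at 0.60, each over 2 probes, while their partner chains Il12rb2 and Il18rap were not detected. Il23r, which serves Th17 cells, was not detected, and Il1rl1, the interleukin 33 receptor, stood at -0.82 with 1 of 3 probes detected.

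The factors of helper fates were almost all detected, 25 of 26, and 0 were strong, with a median of 1.14. Stat5a and Stat5b, which carry the interleukin 2 signal, stood at 4.26 and 4.04. Bcl6 of follicular helper cells stood at 3.60, Tbx21 of Th1 cells at 3.29 and Gata3 of Th2 cells at 2.93. These 3 lie within the error between probes and have no order. Foxp3 of regulatory T cells stood at 1.70, and Maf at 0.93. Eomes stood at 0.78 over 2 probes, and Hlx was not detected. Single cells cannot be told apart in this RNA, so which factors share a cell was not measured.

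Of 19 chemokine receptors 11 were detected, the same 57.9% as of all named genes. Ccr7, which guides naive cells to lymph nodes, was the 1 strong member at 6.80. Cxcr6 and Cxcr3, receptors of effector cells, stood at 3.25 and 3.01. Cxcr5 of follicular helper cells stood at -0.01 and Cxcr4 at -0.08. Ccr2 was weak at -2.43, and Ccr1, Ccr3, Ccr8 and Cx3cr1 were not detected. Ccl1 was thus among the strongest chemokines while its receptor Ccr8 was not detected.

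Genes of the naive and quiescent state were among the high groups. All 20 were detected and 11 were strong, with a median of 4.70, above the 2.82 of the activation receptors. Ms4a4b, a membrane protein of resting T cells, stood at 8.15, and the quiescence factor Klf2 at 6.63. S1pr1, the receptor for exit from lymph nodes, stood at 4.84, and Lef1 and Satb1 at 4.89 and 4.69. Tcf7 stood at 2.59 over 2 probes, and Klf4 was the lowest at 0.46. With no unstimulated sample in the series, whether these levels are above or below those of resting cells cannot be read, and cells that did not respond were not measured apart.

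Adhesion molecules were also well represented, with 19 of 20 detected and 9 strong. Icam2 stood at 6.70, the integrin chains Itgb7 and Itga6 at 6.40 and 6.11, and the lymphocyte antigen Ly6a at 5.45. Cd44, a mark of antigen-experienced cells, stood at 1.77 with 2 of 4 probes detected. Itga5 was weak at -2.61 and Itga2 was not detected. Itga1 stood at 6.84 on 1 probe, while its other probe was at -5.51 and not above background.

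Both sides of the cell death machinery were present. Of 16 survival genes 16 were detected and 4 were strong, with a median of 2.53. Bcl2a1d, an inducible BCL-2 relative whose copies may share signal, stood at 6.31, Mcl1 at 5.24 over 2 probes and Bcl2 at 4.17. Bcl2l1 (BCL-XL) stood at 2.24 over 2 probes with an SD of 4.0. Of 29 genes of death 26 were detected and 1 was strong, with a median of 1.27. That gene was Bax, the pore former of mitochondria, at 5.57. The death receptor Fas stood at 2.79 and its ligand Fasl at 1.99, and the initiator caspase Casp8 at 2.13. The BH3-only genes ranged from Bbc3 (PUMA) at 2.86 through Bcl2l11 (BIM) at -0.15 to Hrk and Bik, which were not detected.

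The series title concerns a Notch ligand, and 20 of 30 Notch pathway genes were detected (66.7%, near the 57.9% of all named genes). Of the 20 detected genes 2 were strong, the same share as the 10% of all detected genes. The receptors Notch1 and Notch2 stood at 2.87 and 1.66, each with 1 of 2 probes detected, and Notch3 and Notch4 were not detected. Of the ligands, Dll4, Jag2 and Dll3 were weak at -1.39, -1.97 and -3.11, and Dll1 and Jag1 were not detected. Of the cutting enzymes and their subunits, Psenen stood at 5.68, Adam10 at 3.66 and Psen2 at 3.54, and Aph1a had probes at 3.01 and -2.39. Adam17 was weak, with probes at -2.25 and -2.54, and Ncstn was not detected. The fringe enzyme Mfng stood at 4.98. Rbpj, the DNA-binding protein of the pathway, stood at 1.04 over probes at 1.82 and 0.25. Among targets, Dtx1 stood at 1.09 and Hes5 at -1.10, while Hes1, Nrarp, Hey1, Hey2 and Heyl were not detected.

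Cell cycle genes were detected with replication above mitosis in level. Of 38 genes of DNA replication 37 were detected and 6 were strong, with a median of 2.68. Mcm6, a subunit of the replicative helicase, stood at 6.33, the sliding clamp Pcna at 5.92, Rrm2 at 3.92 and Tk1 at 2.68. Tyms and Cdc45 were weak at -1.81 and -2.36, and Ccne2 was not detected. Of 31 mitotic genes 28 were detected and 0 were strong, with a median of 0.77. Mki67, the proliferation antigen, stood at 3.41 over probes at 3.58 and 3.25, the mitotic kinase Plk1 at 2.04, Ccnb1 at -0.45 and Cdk1 at -0.97, each of these last genes with 2 of 3 probes detected. The difference between the medians was not tested.

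Among regulators of G1, Ccnd2 and Ccnd3, the D cyclins of lymphocytes, were strong at 4.97 and 4.88, and Ccnd1 was not detected. Cdk4 stood at 3.85 over 3 probes and Cdk6 was not detected. The inhibitor Cdkn1b (p27) was strong at 5.09, beside Cdkn2d at 3.86, Cdkn1a at 1.30 and Cdkn2a at -2.06. In all, 17 of these 20 genes were detected.

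Interferon-responsive genes were all detected, 38 of 38, and 11 were strong, with a median of 3.25. Igtp, an immunity-related GTPase, stood at 7.71, and the guanylate-binding proteins Gbp4 and Gbp2 at 7.35 and 6.98. All 9 measured Gbp genes were detected and 4 were strong. Stat2 and Irf9, parts of the factor that type I interferon activates, stood at 5.21 and 5.13. Antiviral genes were spread over the classes. Rtp4 and Bst2 were strong at 5.35 and 4.88, Ifit3 and Oas2 stood at 4.31 and 4.02, Isg15 at 2.85 over 2 probes and Ifit1 at 1.21, and Rsad2 and Oas3 were weak at -1.87 and -1.86. Irf1 stood at 2.78 over probes at 7.60 and -2.04.

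MHC class I genes were detected in 15 of 15 cases and strong in 9, with a median of 5.98. B2m, the light chain, stood at 8.29, H2-K1 at 8.21 over 2 probes and H2-D1 at 7.63. The immunoproteasome subunits Psmb10, Psmb9 and Psmb8 stood at 7.37, 6.28 and 5.98, and the peptide transporter chains Tap2 and Tap1 at 6.56 and 1.85. MHC heavy chain genes are close relatives, so their signals may be shared. The killer gene list had a lower median of 1.97. Of its 15 genes 10 were detected (66.7%, near the 57.9% of all named genes), and 1 was strong. Srgn, the granule proteoglycan, stood at 6.54, Gzmb at 1.95, Gzma at 2.00 and the pore former Prf1 at 0.94. The granzyme cluster Gzmd, Gzme, Gzmf, Gzmg and Gzmn was not detected, and relatives among granzymes may share signal.

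Of 18 B cell markers 12 were detected (66.7%, near the 57.9% of all named genes) and 0 were strong. Cd79b stood at 3.41, and Ms4a1 (CD20) at 2.48, whereas Cd79a, Pax5, Ebf1 and Blk were not detected. Of 18 dendritic cell and MHC class II genes 13 were detected (72.2%) and 4 were strong, up to Siglech at 9.07 with 1 of 2 probes detected. Among them were H2-Ab1 at 4.79 over 2 probes with an SD of 0.1, H2-Eb1 at 4.66 and the invariant chain Cd74 at 3.62, beside H2-Aa at 0.12. The 5 not detected were Itgax, Flt3, Zbtb46, Xcr1 and Clec9a. The part of B cells or antigen-presenting cells in any value above was not tested.

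Macrophage markers were detected in 5 of 17 cases (29.4%, against 57.9% of all named genes) and 0 were strong. By the scanner software's more lenient positive and significant flag 13 of 17 (76.5%) were detected. That share is near the 71.9% of all named genes by the same flag. By the main flag Adgre1, Cd14, Lyz2, Mrc1 and the C1q genes were not detected. Csf1r stood at -0.12 over 3 probes. Of 13 NK cell markers 8 were detected (61.5%, near the 57.9% of all named genes), up to Cd244a at 4.45, while Ncr1, Klrb1c and Klre1 were not. Of 7 CD8 T cell markers 5 were detected (71.4%, beside the 57.9% of all named genes) and 0 were strong. They were led by Crtam at 4.08, a receptor also found on some activated CD4 cells. Of 23 neutrophil, mast cell and red cell markers 7 were detected (30.4%, against 57.9% of all named genes). The 1 strong member was Csf3r at 8.57 on 1 probe. Elane stood at 0.36, S100a9 at -0.23 and S100a8 at -1.93, and the haemoglobin genes Hba-a1 and Hbb-bs were not detected. Stromal, endothelial and epithelial markers were detected in 8 of 21 cases (38.1%). Kdr stood at 3.62 with 1 of 2 probes detected, Col3a1, Col1a2 and Epcam were weak at -2.03, -2.19 and -2.50, and Col1a1, Pdgfra, Cdh5 and Cdh1 were not detected.

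Lists of distant tissues are set beside the 57.9% of all named genes. Liver genes were detected in 6 of 20 cases, with Alb not detected, neuronal genes in 6 of 20, skeletal and cardiac muscle genes in 6 of 20, and testis and germ cell genes in 5 of 20. The muscle genes detected were all weak, from -0.91 for Tnni3 to -2.83 for Mylpf. In these 4 lists 25 to 30% of genes were thus detected. The neuronal genes detected were not mainly weak, with 2 strong, 2 intermediate and 2 weak, and pluripotency genes were detected more often, in 7 of 12 cases (58.3%) with 1 strong. Olfactory receptors were detected in 79 of 1072 cases (7.37%), with 57 weak and 0 strong, and vomeronasal receptors in 16 of 252. These receptors are large families of close relatives, so single values are uncertain. Of 39 Hox genes 8 were detected, and of 43 collagens 11.

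Several genes stood in the strong class on 1 probe while another probe of the same gene was not above background, and some of them are known from other tissues. Slc10a1, the bile acid carrier of liver, was the highest of all genes at 10.95, while its other probe stood at -5.38 and was not above background. Elk1 stood at 10.80 with the other probe at -3.68. Shc4, Cabp5 and Pbld1, also among the 30 highest, each had 1 of 2 probes detected as well. Tdgf1, an embryonic growth factor, stood at 9.27 with 1 of 3 probes detected, Siglech, a plasmacytoid dendritic cell receptor, at 9.07 with 1 of 2, and the neuronal Mapt at 6.85 with 1 of 3. Itgam stood at 2.32 over detected probes at 7.06 and -2.42, with a further probe at -3.73. In all, 82 genes had a probe in the strong range and another that was not above background. Csf3r, the receptor of neutrophils for G-CSF, at 8.57 and Snap25, a synaptic protein, at 6.78 each rest on 1 probe, so no second probe stands beside them.

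Disagreement between probes was common at all levels. Of 5512 genes with at least 2 probes, 2736 had all probes detected, 1349 some and 1427 none. Where at least 2 were detected the median range between them was 2.11 log2, with quartiles at 0.94 and 3.74, and the range was over 2 in 1516 of 2912 genes (52.1%) and under 1 in 763 (26.2%). The intraclass correlation over 2280 genes with both of 2 probes detected was 0.36, across genes within this array. Of 304 strong genes with several probes, 68 (22.4%) had a probe that was not above background, and the other 906 strong genes rest on 1 probe. Which transcript end, splice form or strand each probe reads was not examined here, and the part of any of these in the disagreement was not tested.

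**Figure D4:**
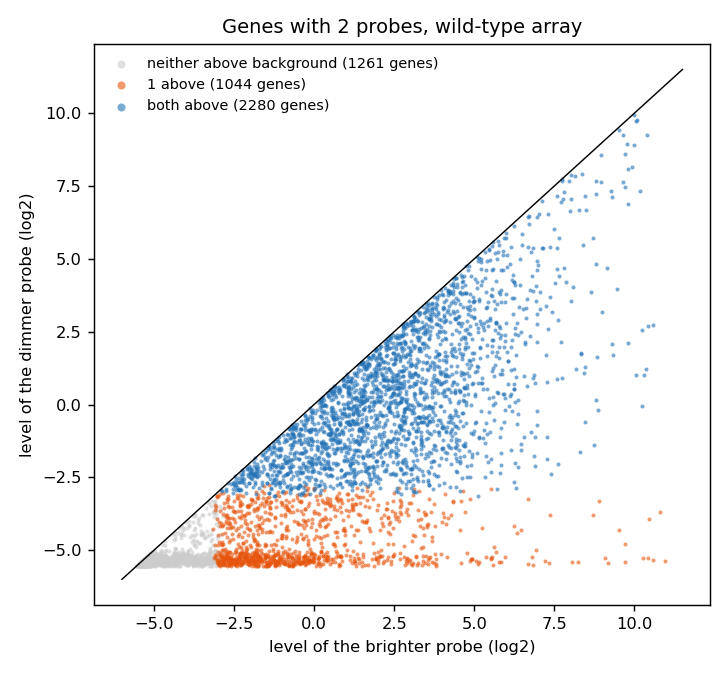
Level of the brighter probe (x axis, log2) against that of the dimmer probe (y axis, log2) for genes with 2 probes on the wild-type array, with the line of equal levels. Colours give genes with both probes (2280), 1 probe (1044) or neither probe (1261) above background. Points spread far below the line, and some genes with a brighter probe above 10 have a dimmer probe near -5.

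Promoter composition differed between the classes in a graded way. One promoter per gene was matched for 16552 of the 20887 named genes. CpG-rich promoters made up 68.0% of strong genes, 69.9% of intermediate genes, 47.9% of weak genes and 23.7% of undetected genes, or 27.9% of undetected genes without olfactory and vomeronasal receptors. The letters TATAA within 50 bases before the start, on the gene's strand, were found in 3.97%, 2.6%, 5.72% and 9.09% in the same order. Over the detected genes in 10 equal steps of level, the CpG-rich share went from 42.2% in the lowest step to 73.2% in the eighth and was 68.0% in the highest. The longer TATAAA anywhere in the 250 bases before the start was at 4.98% in strong and 11.9% in undetected genes on the gene's strand. On the other strand it was at 3.76% and 8.16%. Undetected genes without olfactory and vomeronasal receptors had it at 9.96% on the gene's strand and 5.25% on the other. Both strands thus gave lower shares in strong genes, but without those receptors the difference on the other strand was small. TATAAA holds TATAA, so these counts overlap.

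**Figure D5:**
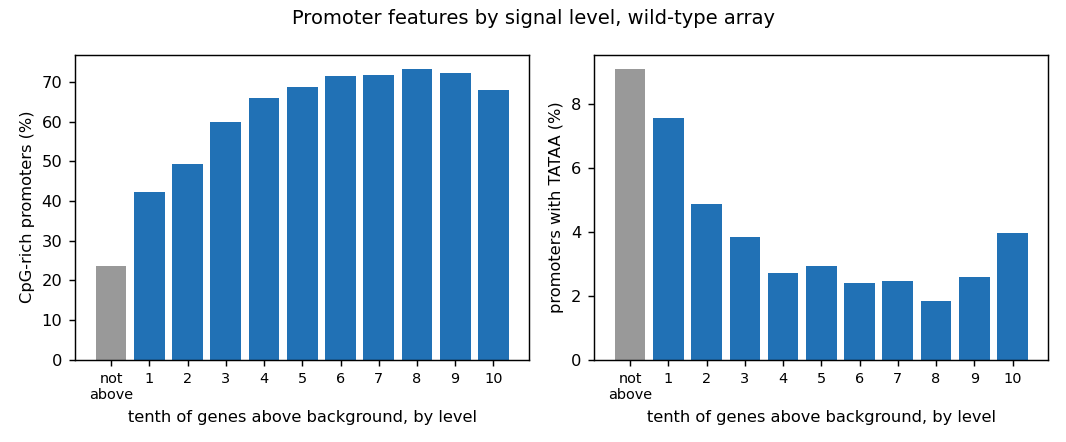
Percent of genes with a CpG-rich promoter (left y axis) and with TATAA within 50 bases before the annotated start (right y axis) for undetected genes (grey) and for detected genes in 10 equal steps of level from lowest to highest (x axis, blue). The CpG-rich share runs from 23.7% in undetected genes to 73.2% in the eighth step, and the TATAA share from 9.09% down to 1.84% in that step and 3.97% in the highest.

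The lists showed departures from that gradient. CpG-rich promoters were few in 3 immune lists whose median level lay well above that of all detected genes. They were 1 of 8 (12.5%) for the receptor complex and coreceptors, 16.7% of 12 for MHC class I and antigen processing and 14.3% of 28 for interferon-responsive genes. Cytosolic ribosomal proteins, with 81.5% of 54, and translation factors, with 96.4% of 28, lay on the other side. Without the ribosomal proteins 67.1% of strong promoters were CpG-rich, so these genes did not set the share of the class.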

How the data were processed

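RNA of 1 wild-type sample was labelled with Cy3 and hybridised to 1 Agilent array, per the labels' protocols. The authors deposited scanner output with a processed signal per spot, a linear intensity from which background had been removed. Feature Extraction was used, with 10.7 as its version per the submitters' processing notes. The file headers give 10.7.1.1. The deposited series table holds log2 values, and 100% of its 55681 entries for this array equalled, to within 0.01, log2 processed signal plus 1 offset of -7.47, so it is not centred per gene.

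Control spots and 143 outlier spots were left out, spots of one probe were averaged, and the 75th percentile over the 55681 probes was subtracted on the log2 scale. A probe printed repeatedly counted as well above background where more than 0.5 of its spots did. Accessions were matched to a RefSeq gene table (GRCm38.p6), which named 27509 probes (49.4%). Per the file headers the design used mm9, so that table gave names only, and the printed coordinates are those of the RefSeq promoter table. Levels of a gene's detected probes were averaged. For each gene the first promoter in the table was used.

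The 45 gene lists, 30 families and the classes were chosen with earlier results of these data known. Named genes are the 30 highest without clone names, list members, and strong members of families or all detected ones where a family has at most 5. Genes next to the edge of the strong class are named too. Some genes that the rule picks are not reported here. Alternatives were the positive and significant flag, detection on all 3 arrays, probes in the higher-numbered rows only, outlier spots kept, normexp correction with an offset of 50 (limma 3.58.1, R 4.3.3), the brightest probe and the authors' series table. The mean signal column was not used here, so normexp ran on the median spot and background signals. Other steps used Python 3.11.15, pandas 2.3.3 and scipy 1.17.1. Of these, the averaging of spots and probes and the classes were tested on simulated data. Probes of a gene shared the same true level there, so differences between probes were not simulated. The single array limits the precision, and intervals cover counting error only.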

Additional observations from a re-analysis of the deposited data

Results flagged for a closer look

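Signal was also present in probes that no gene name was found for and that the report does not use. Of 28172 such probes 10357 (36.8%) were well above background, and 1253 had a level in the strong range. Probes named by a genome interval were detected in 31.3% of 16194 cases, those with a RefSeq accession outside the table in 43.0% of 1641, and those with another accession or name in 44.3% of 10337. Negative control spots gave 0 of 285.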

How the results depend on the processing

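No paired analysis was possible because the group holds 1 array. The share of detected genes, 57.9%, became 71.9% with the positive and significant flag, 55.3% when detection on all 3 arrays was required and 56.2% in the higher-numbered array rows. With the positive and significant flag, detection reached 97.1% for cytokine receptors, 84.2% for chemokine receptors, 88.9% for B cell markers, 76.5% for macrophage markers and 100% for mitosis, translation factors, proteasome, chaperones, sterol synthesis, CD8 T cell markers and integrins. In the higher-numbered rows it was 100% for translation factors and for serine and one-carbon genes, and 16.7% for stromal markers, and the median levels were 1.26 for T cell receptor signalling, 3.07 for inhibitory receptors, 0.23 for killer genes and 0.13 for liver genes, over fewer genes. With the brightest probe the macrophage median was 1.37. Other list shares stayed within their interval, and other medians moved by at most 1.41 log2, the median SD between probes of one gene. Levels under normexp had a Spearman correlation of 0.997 with the main ones and kept 1175 of 1210 strong genes, and the series table kept 1210. With the brightest probe 958 were kept. In the higher-numbered rows 603 of 708 were. Of 897 named genes 112 moved with the brightest probe and 16 with normexp, and of 504 measured in the higher-numbered rows 48 did. The causes were not tested. On all 3 arrays 2503 of 3025 weak genes were detected, and 1210 of 1210 strong ones.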

Other observations

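RNA processing genes, not described above, were nearly all detected. Of 20 hnRNP genes 20 were detected and 6 were strong, led by Hnrnph1 at 6.54 and Hnrnpm at 6.14. Small nuclear ribonucleoprotein and Sm genes were detected in 24 of 26 cases and strong in 9, with Snrpg at 7.37 over 2 probes and Lsm7 at 6.81. DEAD-box helicases were detected in 33 of 35 cases, and Ddx5 stood at 6.00 over 3 probes. Ddx25, known from germ cells, stood at 9.53 on 1 probe. Zinc finger genes of the Zfp name were detected often, 300 of 370, at a median of 0.19 with 10 strong, among them the mRNA decay factors Zfp36l2 at 5.06 and Zfp36l1 at 4.79.

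Long non-coding RNAs were detected in 286 of 963 cases (29.7%), against 59.4% of protein-coding genes, and 15 were strong. The following were chosen after their values were seen. Snhg15, Snhg6, Snhg3 and Snhg12, hosts of small nucleolar RNAs, stood at 6.77, 6.15, 5.17 and 5.16. The nuclear RNAs Neat1 and Malat1 stood at 5.36 and 3.67, and Mir17hg, the host of a microRNA cluster of proliferating lymphocytes, at 3.68. On the Y chromosome 2 of 21 genes were detected, Ssty1 at 1.16 with 1 of 3 probes and Gm20865 at -1.59 with 1 of 2, both members of multicopy families, and on the X chromosome 48.9% of 824 genes were.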
